A study of Mus musculus with 62 samples.

Results

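Interferon-stimulated genes are the genes that cells switch on when interferons bind their receptors, and 39 of them were followed here through the livers of melanoma-bearing and tumour-free mice. The 39 members were taken by gene symbol from a list of well-known interferon-induced genes out of 47643 symbols measured. They comprised 3 RNA sensors, 4 transcription factors, 4 IFIT proteins and 7 genes of the oligoadenylate synthetase (OAS) family. The others were 3 genes of the ISG15 system, 9 other antiviral effectors, 3 further inducible proteins and 6 GTPases. Liver RNA was sequenced at 2, 4, 6 and 8 weeks after injection of cachectic melanoma cells (CAC), injection of non-cachectic melanoma cells (NCAC) or a mock injection (Con). Each group held 5 livers, except that 7 CAC livers were taken at 8 weeks, which made 62 libraries in 12 groups. The mice were females of 2 months, given no other allele or drug in the labels. The strain is given as C57BL6/J in the sample labels and as NCI Ath/nude, a strain without a thymus, in the study's design text, and these could not be reconciled. All groups share that background. The injected melanoma lines are not named, and the extraction protocol mentions LLC, a mouse lung carcinoma line. Cachexia is the wasting of muscle and fat that accompanies some tumours.

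Type I and type III interferons act through receptors that activate STAT2, which joins IRF9 and acts at interferon-stimulated response elements (ISREs) in the promoters of its targets. Interferon gamma acts through gamma-activated sites (GAS), and IRF1 and IRF7 extend the response. The products block virus entry, RNA translation and virus release. In liver, hepatocytes, Kupffer cells (the resident macrophages) and endothelium all express such genes at a resting level.

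Promoters of 5 members are printed because these genes differ in what the livers showed and in whether the element is there. Each is the 250 bases before the gene start in RefSeq (GRCm38.p6), 5′ to 3′ on the gene's strand, with capitals marking matches to the ISRE letters GAAANNGAAA on either strand. Bst2 (chr8:71537473-71537722, minus strand) and Ifit3b (chr19:34607707-34607956, plus strand) were called lower in CAC livers, and so was Igtp (chr11:58199306-58199555, plus strand). Isg15 (chr4:156200819-156201068, minus strand) varied strongly between livers of 1 group. Ifitm3 (chr7:141010745-141010994, minus strand) was called higher.
Bst2: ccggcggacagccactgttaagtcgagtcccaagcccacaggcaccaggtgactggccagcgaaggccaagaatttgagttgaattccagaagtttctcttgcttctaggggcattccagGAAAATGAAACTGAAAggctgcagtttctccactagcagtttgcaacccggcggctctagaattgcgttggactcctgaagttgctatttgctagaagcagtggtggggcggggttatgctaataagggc
Igtp: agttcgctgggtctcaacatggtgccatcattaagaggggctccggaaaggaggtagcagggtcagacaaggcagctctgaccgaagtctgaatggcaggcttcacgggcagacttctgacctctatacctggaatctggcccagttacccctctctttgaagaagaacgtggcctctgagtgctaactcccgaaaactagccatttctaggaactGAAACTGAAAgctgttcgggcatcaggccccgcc
Ifit3b: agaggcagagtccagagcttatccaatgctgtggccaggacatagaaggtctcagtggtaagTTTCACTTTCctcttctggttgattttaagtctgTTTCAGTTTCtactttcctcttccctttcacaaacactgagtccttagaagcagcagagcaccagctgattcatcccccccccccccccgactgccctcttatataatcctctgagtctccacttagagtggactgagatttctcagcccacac
Isg15: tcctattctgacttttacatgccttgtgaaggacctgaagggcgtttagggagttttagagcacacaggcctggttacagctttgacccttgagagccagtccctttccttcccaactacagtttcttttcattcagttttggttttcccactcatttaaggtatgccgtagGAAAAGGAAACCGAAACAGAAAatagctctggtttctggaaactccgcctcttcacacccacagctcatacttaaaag
Ifitm3: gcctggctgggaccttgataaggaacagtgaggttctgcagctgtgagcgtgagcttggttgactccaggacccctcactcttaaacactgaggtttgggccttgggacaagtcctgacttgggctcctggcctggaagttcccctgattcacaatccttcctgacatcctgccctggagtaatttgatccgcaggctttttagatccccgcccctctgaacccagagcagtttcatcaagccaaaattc

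Overlapping ISRE matches began at bases -130 and -124 from the gene start in Bst2, and at -78, -72 and -66 in Isg15. Ifit3b held separate matches at -188 and -154. Igtp held 1 match at -34, and Ifitm3 held none in this window. Of the 39 members, 30 had a promoter in the table, and 15 of these 30 held an ISRE match, against 3.04% of all 27025 promoters. GAS letters, TTCNNNGAA, were found in 7 member promoters (23.3%), against 7.18% of all promoters. The printed promoters do not stand for all called members. Irf1, Trim25, Ddx58 and Ifi47 were also called lower in CAC livers in at least 1 comparison, and their promoters held no ISRE match. Among called members with a promoter 4 of 9 held an ISRE match, against 11 of 21 among those not called. A match is a run of letters and was not tested for binding.

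The values are TPM, each gene's share of all transcripts after correction for length, and depth is unknown because TPM keeps none. Of the members, 37 reached 1 TPM in at least 5 libraries and were tested among 12160 genes. Mx1, a GTPase that restricts influenza virus, lay between 0.136 and 0.446 TPM in CAC livers at 8 weeks, between 0.172 and 0.807 TPM in NCAC livers and between 0.374 and 0.824 TPM in Con livers. Oas3, a synthetase of the RNase L activator, lay between 0.155 and 0.613 TPM in CAC, between 0.112 and 0.939 TPM in NCAC and between 0.335 and 0.974 TPM in Con. Both fell under that limit and stayed out of the tests, and with no filter on low values Mx1 was called lower in CAC than in Con livers at 8 weeks. Among the tested members, the mean TPM over all libraries ran from 0.776 for Oas1b to 590.5 for Ifitm3, and Bst2 (164 TPM), Igtp (44.6 TPM) and Ifi27 (43.6 TPM) came next. TPM is scaled by transcript length, so these levels can be set beside each other.

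Libraries differed in ways that the groups do not explain. Hepatocyte markers summed to between 98340 and 151300 TPM in every library, so the liver label held. Of 7 melanocytic markers, 2 (Mlana and Tyrp1) were listed at 0 throughout, and the 7 summed to between 5.48 and 25.06 TPM. At 8 weeks their median sum was 17.52 TPM in CAC, 13.03 TPM in NCAC and 12.3 TPM in Con livers. Of 3 tested, 1 was called higher in CAC than in Con livers then, beside 5.87% of all genes. The source of these transcripts was not tested. In 9 libraries the pancreatic protease gene Ctrb1 reached 100 TPM (CAC replicates 1 and 4 at 2 weeks, NCAC replicates 3, 4 and 5 at 4 weeks, CAC replicate 1 and Con replicate 4 at 6 weeks, and Con replicates 2 and 4 at 8 weeks). In 5 libraries the skeletal muscle gene Acta1 reached 10 TPM, among them NCAC replicates 1 and 5 at 8 weeks. Calls that were lost or gained without these livers are named beside the result. These are bulk samples, in which fewer cells of a type and less RNA per cell cannot be told apart.

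The common level of the members, the mean of log2(TPM + 1) over the 37 tested genes, stayed close to the same value in CAC livers at all times. It was 2.99 ± 0.36 at 2 weeks, 2.95 ± 0.43 at 4 weeks, 2.94 ± 0.12 at 6 weeks and 2.93 ± 0.34 at 8 weeks (SD, n = 5, and n = 7 at 8 weeks). NCAC livers stood at 2.96 ± 0.41, 3.18 ± 0.17, 3.20 ± 0.13 and 3.21 ± 0.37 at the same times (n = 5 each), and Con livers at 3.20 ± 0.21, 2.87 ± 0.46, 3.17 ± 0.14 and 3.28 ± 0.21 (n = 5 each). At 6 weeks the CAC livers spanned 2.81 to 3.12, against 3.03 to 3.37 in NCAC and 3.01 to 3.35 in Con livers, and the ranges overlapped at their edges. At 8 weeks the CAC livers spanned 2.49 to 3.41, against 2.78 to 3.74 in NCAC and 2.98 to 3.56 in Con livers.

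**Figure D1:**
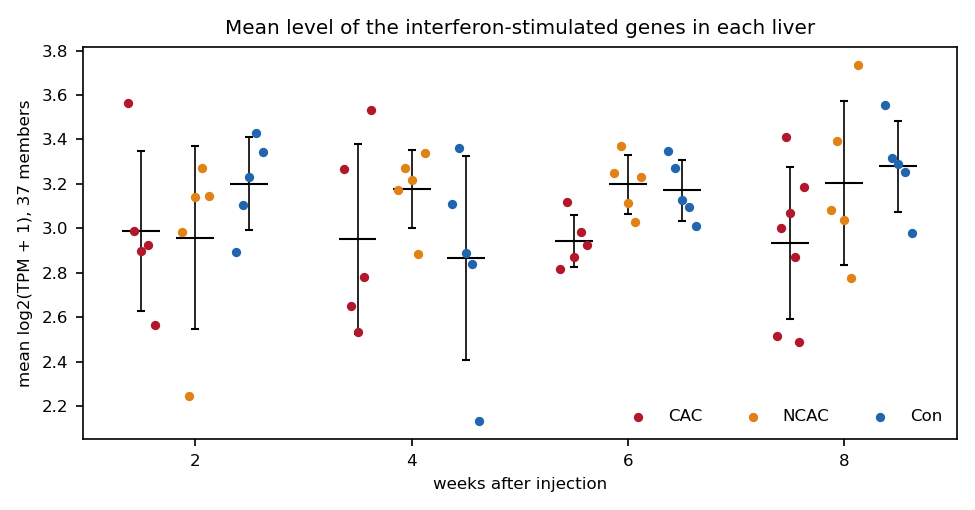
Mean log2(TPM + 1) of the 37 tested interferon-stimulated genes in each of 62 livers (points), by week and group, with the group mean and SD as bars. Single livers depart from their group: Con replicate 5 at 4 weeks lies at 2.13 and NCAC replicate 2 at 2 weeks at 2.24, while NCAC replicate 5 at 8 weeks lies at 3.74.

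Much of the spread in that plot came from single livers. The livers given here were picked for the largest mean deviations of the members from their group. Many members lie at the edge of the group there by that choice. The shares of all genes were not selected in this way, so the 2 are given as a description. NCAC replicate 2 at 2 weeks was the lowest of its group in 37 of 37 members, whereas 27.3% of all tested genes were lowest there. Con replicate 5 at 4 weeks was lowest in 32 of 37, against 20.9% of all genes. In the other direction, CAC replicate 1 at 2 weeks was highest of its group in 31 of 37 members (17.1% of all genes), and its pancreatic markers summed to 968.4 TPM. CAC replicate 5 at 4 weeks was highest in 29 of 37 (26.4% of all genes). NCAC replicate 5 at 8 weeks was also highest in 29 (32.9% of all genes), and its skeletal muscle markers summed to 899.4 TPM. The part of these other tissues in the members' levels was not tested.

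At 2 and 4 weeks limma, fitted over all 62 libraries, called no member in any comparison. CAC against Con gave 2 members at an unadjusted p under 0.05 at 2 weeks and 2 at 4 weeks, and CAC against NCAC gave 2 and 1. Among all genes 0.00822% were called for CAC against Con at 2 weeks and 1.91% at 4 weeks, and 0% and 1.27% for CAC against NCAC. For NCAC against Con no member was called at any week in this fit, with 3, 2, 1 and 0 members at an unadjusted p under 0.05 from 2 to 8 weeks. That comparison called 0% of all genes at 2, 4 and 6 weeks and 0.181% at 8 weeks. The fit shares 1 spread per gene over all 12 groups. Fitted on the 2-week livers alone, limma called Irf1 lower in NCAC than in Con livers, where 3.02% of all genes were called. Fits within the other weeks called 0 members for NCAC against Con.

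At 6 weeks Ifitm3, which blocks virus entry at endosomal membranes, was higher in CAC livers, and Trim25, a ubiquitin ligase that activates RIG-I, was lower. For CAC against Con, 1 of 37 members was called higher and 1 lower, beside 5% of all genes higher and 10.3% lower. For CAC against NCAC, 2 of 37 were called lower and none higher, where 5.54% of all genes were called lower and 6.55% higher. The shares of members are not above these backgrounds. The median log2 difference over the members was -0.21 for CAC minus Con and -0.29 for CAC minus NCAC, beside medians of -0.12 and -0.03 over all tested genes. Rescaling each library by the median of ratios to a common library moved the all-gene median for CAC minus Con to -0.02. Endothelial markers moved with these changes: the 11 summed to a median of 255.8 TPM in CAC livers at 6 weeks (166 to 287), 111.5 TPM in NCAC (64.9 to 147.5) and 148 TPM in Con (132 to 199.9), with 3 called higher against Con and 7 against NCAC. The 10 B and plasma cell markers had medians of 95.9 TPM in CAC (22.1 to 189.7), 149 TPM in NCAC (79.0 to 979) and 124 TPM in Con (72.0 to 432), with 3 of 8 tested called lower against Con. None of either list was at 0 in all livers of a group, and their part in the members' differences was not tested.

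Ifitm3 (chromosome 7, 141009586 to 141010770, minus strand, mm10) had 716, 705, 809, 651 and 635 TPM in the 6-week CAC livers. It had 492, 624, 524, 536 and 632 TPM in NCAC livers and 444, 415, 456, 456 and 365 TPM in Con livers. Every CAC liver lay above every Con liver, and the CAC and NCAC ranges did not overlap either, though by only a few TPM. The log2 difference for CAC minus Con was 0.72 (95% interval 0.40 to 1.03, limma adjusted p = 0.00103), and 0.85 after rescaling. For CAC minus NCAC it was 0.33 (adjusted p = 0.192), and for NCAC minus Con 0.39 (adjusted p = 0.535, ranges not overlapping), neither called. Con means were 635 ± 117, 443 ± 93.4, 427 ± 38.7 and 626 ± 152 TPM from 2 to 8 weeks (SD, n = 5 each). CAC means were 634 ± 101, 637 ± 92.5, 703 ± 68.2 and 669.7 ± 107 TPM (n = 5, and n = 7 at 8 weeks). At 4 weeks the difference for CAC minus Con was 0.54 (adjusted p = 0.0627, and 0.0375 after rescaling). This difference was called without the pancreatic libraries, with or without the muscle libraries. At 8 weeks it was 0.12 (adjusted p = 0.547), and for CAC minus NCAC 0.20 (adjusted p = 0.267), where rescaling gave 0.50 and a call. A moderated F test of whether CAC minus Con changed over the weeks gave Ifitm3 the lowest adjusted p of the members, 0.0551, which missed the threshold, and 9.51% of all genes passed it. No member passed the test of whether Con livers changed over the weeks, where 0.23% of all genes did, and Ifitm3 again came nearest (adjusted p = 0.0708). Reads of Ifitm3 may be shared with its near copy Ifitm2, since the assignment of such reads is not given in the sources used here.

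Trim25 (chromosome 11, 88999376 to 89020293, plus strand) had 15.0, 18.1, 23.0, 19.4 and 24.9 TPM in CAC livers at 6 weeks. NCAC livers had 29.9, 39.7, 20.1, 35.03 and 32.3 TPM, and Con livers 28.0, 23.4, 35.9, 38.4 and 34.0 TPM. Most CAC livers lay below both other groups, with a small overlap. The log2 differences were -0.64 for CAC minus Con (95% interval -1.02 to -0.26, adjusted p = 0.0162) and -0.61 for CAC minus NCAC (-0.99 to -0.23, adjusted p = 0.0247). Without the pancreatic libraries these became -0.48 (adjusted p = 0.0936) and -0.51 (adjusted p = 0.0712), and neither was then called. The call against Con was also lost without CAC replicate 1 or Con replicate 4 alone, the 6-week livers with pancreatic transcripts. The call against NCAC was lost without CAC replicate 1 or 2 or NCAC replicate 2, 4 or 5. At 8 weeks Trim25 was lower than in NCAC (-0.51, adjusted p = 0.0145, and -0.21 with no call after rescaling) but not called against Con (-0.35, adjusted p = 0.101). It was called lower than in Con without the pancreatic libraries, and the call against NCAC was lost without NCAC replicate 3.

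The IFIT proteins, which bind viral RNA and hold back its translation, lay below Con at 6 weeks in all 4 members, with log2 differences from -0.68 to -0.55. None was called against Con over all libraries, and Ifit2 was called lower without the pancreatic libraries, with or without the muscle libraries. Ifit3b (chromosome 19, 34607970 to 34613401, plus strand) had 1.03, 1.65, 0.804, 1.66 and 1.28 TPM in CAC livers. NCAC livers had 3.24, 3.27, 2.35, 2.10 and 3.31 TPM, and Con livers 3.02, 3.17, 2.27, 2.25 and 1.85 TPM. No CAC liver reached the lowest liver of either other group. Against NCAC the log2 difference was -0.76 (adjusted p = 0.0328), and against Con -0.62 (adjusted p = 0.0735). The call against NCAC was lost without CAC replicate 1 or 3 or NCAC replicate 1, 2 or 5, and without the pancreatic libraries no member was called in this comparison. Ifit1, whose protein binds RNA that lacks a methylated cap, had 1.55, 2.90, 1.38, 2.35 and 2.37 TPM in CAC livers, 5.28, 4.98, 3.75, 3.51 and 4.06 TPM in NCAC and 4.01, 5.95, 3.75, 2.17 and 4.45 TPM in Con. Its CAC and NCAC ranges did not overlap, but the differences of -0.79 (adjusted p = 0.127) and, against Con, -0.68 (adjusted p = 0.147) were not called. Ifit3 and Ifit3b are near copies, so their separate values are uncertain.

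The spread estimate mattered most at this time. The 6-week groups were the tightest, with SDs of the common level between 0.12 and 0.14, while the fit shares 1 spread over all 12 groups. Fitted on the 6-week livers alone, limma called 10 members for CAC against Con (2 higher, Ifitm3 and Mx2, and 8 lower, among them all 4 IFIT genes) where 24.4% of all genes were called. For CAC against NCAC it called 10 (1 higher, 9 lower) where 14.7% of all genes were.

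**Figure D2:**
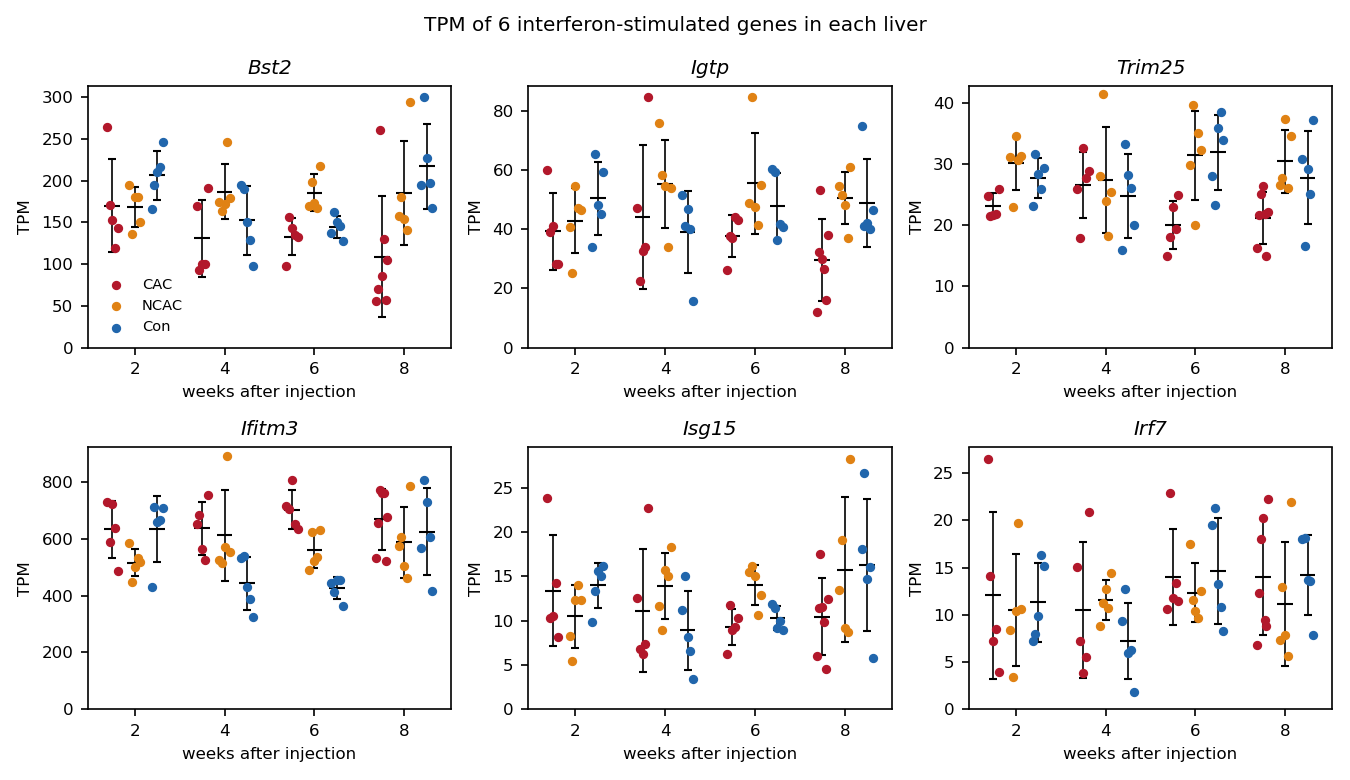
TPM of Bst2, Igtp, Trim25, Ifitm3, Isg15 and Irf7 in every liver (points), by week and group in the order CAC, NCAC, Con, with the mean as a line and the SD as a bar. Ifitm3 separates CAC from Con at 6 weeks, Trim25 lies lowest in CAC at 6 weeks, and Bst2 lies between 55.6 and 130 TPM in 6 of 7 CAC livers at 8 weeks, below all Con livers.

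At 8 weeks the called members were all lower in CAC livers: 7 of 37 (18.9%) against Con, where 41.2% of all genes were called, and 10 of 37 (27.0%) against NCAC, where 48.2% were. Most called genes of the liver were lower too. Among all tested genes 35.3% were called lower and 5.87% higher against Con, and 43.1% lower and 5.09% higher against NCAC, so the members' shares lay below the background. The median log2 difference was -0.35 for CAC minus Con, with 34 of 37 members below 0, and -0.28 for CAC minus NCAC, with 30 below 0. The medians over all genes were -0.21 and -0.26. Median-of-ratios rescaling moved the all-gene medians to -0.00 and -0.01 and the members' medians to -0.17 and -0.04. After rescaling 1 member was called higher (Mx2) and 2 lower (Oas1b and Bst2) against Con. Against NCAC 2 were called higher (Ifitm3 and Mx2) and 2 lower (Oas1b and Bst2). All other members called as deposited lost their call after rescaling. The share of all genes called in either direction fell too, to 26.7% against Con and 25.3% against NCAC. Each called 8-week difference of a member is therefore given with its rescaled value.

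**Figure D3:**
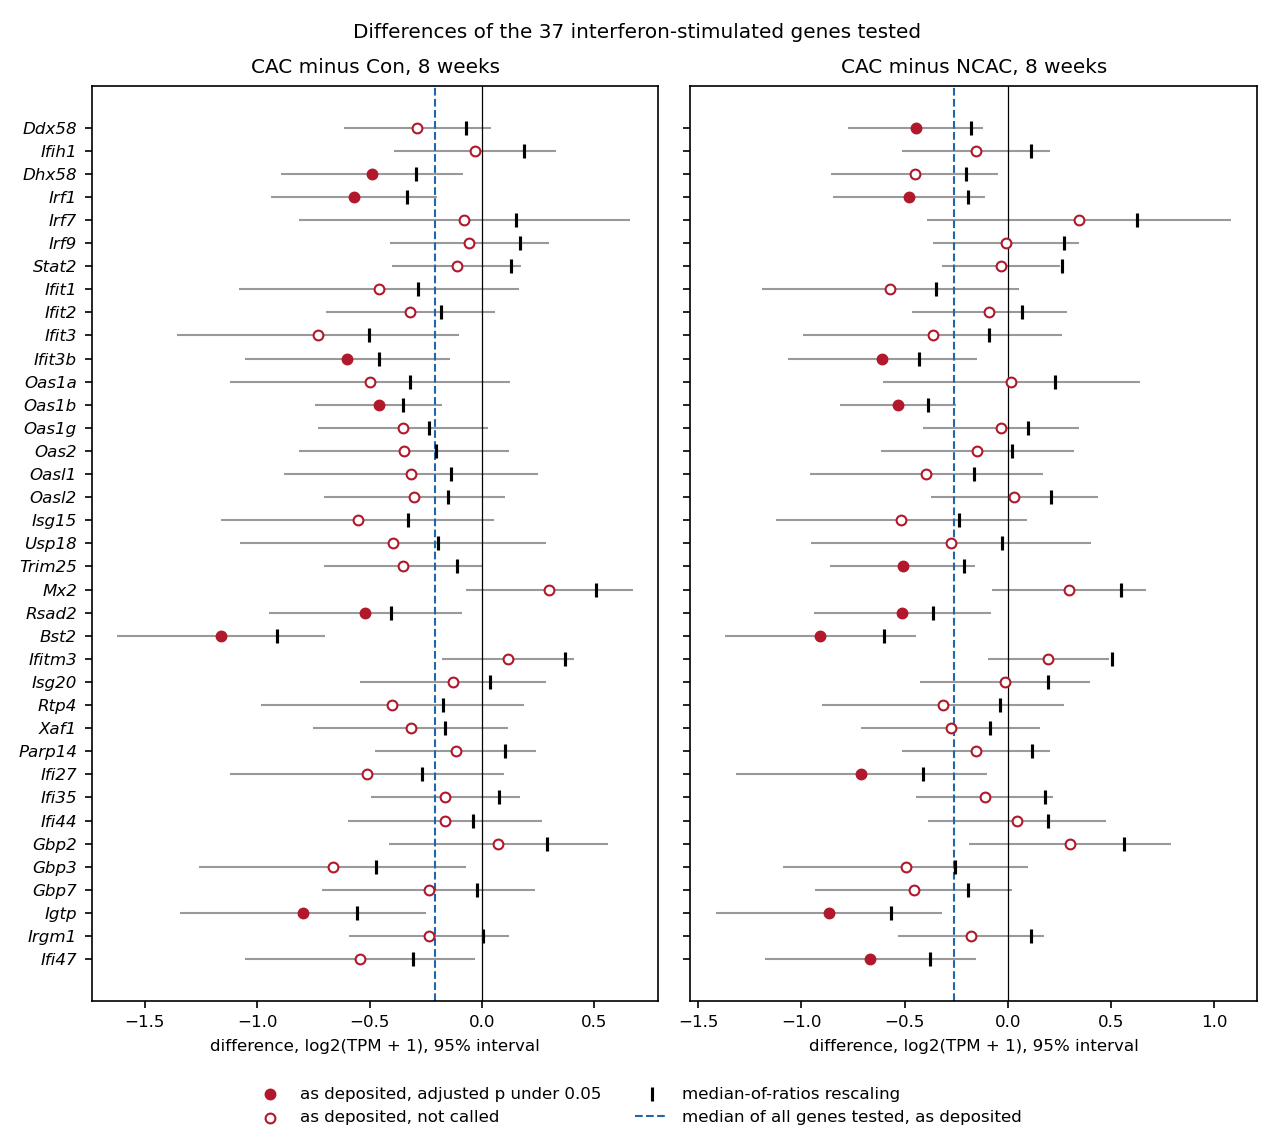
Log2 difference of each of the 37 tested members at 8 weeks for CAC minus Con and CAC minus NCAC, with the 95% interval. Filled points were called, black ticks give the value after median-of-ratios rescaling, and the dashed line is the median of all tested genes. Bst2 lies lowest in both panels at -1.16 and -0.91, and most ticks lie to the right of their points.

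Bst2 had the lowest difference of all members. Its product, tetherin, holds budding virus particles at the cell surface, and the gene lies on chromosome 8 from 71534255 to 71537456 on the minus strand. CAC livers at 8 weeks had a lowest value of 55.6, a median of 86.3 and a highest of 261 TPM, against 157, 180.5, 154, 141 and 294 TPM in NCAC and 194, 300.1, 227, 197 and 167 TPM in Con. All but 1 CAC liver, replicate 3, lay below every liver of the other groups. The log2 difference was -1.16 for CAC minus Con (95% interval -1.62 to -0.70, adjusted p = 7.76e-05, rescaled -0.91 with adjusted p = 0.00119). For CAC minus NCAC it was -0.91 (-1.37 to -0.45, adjusted p = 0.0012, rescaled -0.60 with adjusted p = 0.0352). Both calls held in all alternatives run and on leaving out any 1 library. Before 8 weeks Bst2 was not called: the 6-week CAC livers had 97.3, 156, 143, 135 and 133 TPM, all below the NCAC livers at 169.6, 198, 173, 167 and 218 TPM (difference -0.49, adjusted p = 0.224). The 6-week Con livers, at 137, 162, 150.5, 146 and 128 TPM, overlapped them (-0.13, adjusted p = 0.739). Whether CAC minus Con changed over the weeks gave an adjusted p of 0.0865 by the F test.

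Marker genes of other cells moved with these 8-week differences. The 14 Kupffer cell markers summed to a median of 424 TPM in CAC livers (230.4 to 909), 466.4 TPM in NCAC (369 to 616) and 770.4 TPM in Con (693 to 1111), with none at 0. Of these 14, 8 were called lower in CAC than in Con and none against NCAC, where 35.3% and 43.1% of all genes were called lower. After rescaling 6 were called lower against Con, where 26.7% of all genes were called in either direction. CAC replicate 3, the liver with the highest Bst2, also had the highest Kupffer sum among CAC livers, 908.6 TPM, and the highest neutrophil sum, 83.57 TPM. At the low end the livers differed: replicate 4 had the lowest Kupffer sum, 230.4 TPM, and replicate 1 (407.9 TPM) the lowest Bst2. The 10 B and plasma cell markers had medians of 77.4 TPM in CAC (35.4 to 149.8), 165 TPM in NCAC (66.9 to 358.5) and 250.7 TPM in Con (142 to 2183). All 8 tested were called lower against Con, before and after rescaling, and 3 against NCAC (1 after rescaling). Of T and NK cell markers 2 of 2 tested, and of plasmacytoid dendritic cell markers 2 of 4, were called lower against Con, before and after rescaling. Of 4 tested neutrophil markers 1 was called higher in both comparisons. The 11 pancreatic markers had medians of 7.71 TPM in CAC (4.03 to 14.9), with 5 listed at 0, 18.6 TPM in NCAC (11.0 to 36.4) and 34.2 TPM in Con (18.2 to 5751). All 11 were called lower against Con, before and after rescaling, and none against NCAC. The 11 endothelial markers ran the other way, at medians of 232 TPM in CAC (120 to 286), 126 TPM in NCAC (109 to 152.5) and 149 TPM in Con (111 to 194). Of these 11, 5 were called higher and 1 lower against Con, and 5 higher against NCAC. Of all genes 5.87% and 5.09% were called higher in these comparisons. The part of these cells in the members' differences was not tested.

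Among the RNA sensors, which detect viral RNA in the cytosol, 1 of 3 was called lower in each 8-week comparison, and all 3 lay below 0 in both. Dhx58 encodes LGP2, a helper of the other sensors, and had a lowest, median and highest value of 2.11, 3.61 and 5.92 TPM in CAC livers. NCAC livers had 4.88, 6.70, 4.95, 3.21 and 7.95 TPM and Con livers 7.70, 6.90, 5.82, 5.13 and 3.06 TPM. The groups overlapped, and CAC minus Con was -0.49 (adjusted p = 0.0461, rescaled -0.29 with no call) and CAC minus NCAC -0.45 (adjusted p = 0.0599). The call against Con was lost without the pancreatic libraries (-0.43, adjusted p = 0.150), and on leaving out any of 9 single livers (CAC replicates 1, 2, 4, 5 and 6 and Con replicates 1 to 4), with adjusted p up to 0.155. Ddx58, which encodes the sensor RIG-I, had 4.19, 6.02 and 7.17 TPM in CAC livers as lowest, median and highest, against 8.30, 10.3, 6.87, 6.20 and 9.90 TPM in NCAC and 9.75, 6.16, 7.26, 7.599 and 5.83 TPM in Con. It was lower against NCAC (-0.45, 95% interval -0.77 to -0.12, adjusted p = 0.0206, rescaled -0.18 with no call) and not called against Con (-0.29, adjusted p = 0.152). The call was lost without CAC replicate 6 or NCAC replicate 2 or 5, and without the pancreatic and muscle libraries (-0.36, adjusted p = 0.133). Dhx58 overlaps an antisense gene, Dhx58os, and whether the counting used strand is not given in the sources used here.

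Of the 4 transcription factors 1, Irf1, was called at 8 weeks, lower in both comparisons. IRF1 sustains the response to interferon gamma, and its gene lies on chromosome 11 from 53770014 to 53778374 on the plus strand. CAC livers at 8 weeks had 9.41, 10.4 and 16.6 TPM as lowest, median and highest, against 14.7, 22.4, 17.8, 14.3 and 17.0 TPM in NCAC and 20.5, 19.7, 17.7, 19.5 and 14.2 TPM in Con. Most CAC livers lay below both groups. The difference was -0.57 for CAC minus Con (-0.94 to -0.20, adjusted p = 0.0108, rescaled -0.34) and -0.48 for CAC minus NCAC (adjusted p = 0.0271, rescaled -0.19). Neither was called after rescaling. Against Con the difference became -0.50 (adjusted p = 0.0671) without the pancreatic libraries. The call against NCAC was lost without CAC replicate 1 or 6 or NCAC replicate 2 or 3, and without the pancreatic and muscle libraries (-0.55, adjusted p = 0.0579). Irf7, which drives the spread of type I interferon production, spanned 6.77 to 22.2 TPM in CAC livers with a median of 12.3 TPM. NCAC livers had 7.30, 12.98, 7.89, 5.59 and 21.9 TPM and Con livers 18.0, 18.1, 13.7, 13.6 and 7.80 TPM, so the groups overlapped widely. Its differences were -0.08 (adjusted p = 0.885, rescaled 0.15) and 0.35 (adjusted p = 0.443), not called. Stat2, the subunit that carries the interferon signal to DNA, had 18.3, 27.1 and 31.9 TPM in CAC livers, against 31.2, 27.6, 25.9, 21.4 and 29.9 TPM in NCAC and 34.8, 20.1, 29.4, 28.9 and 32.2 TPM in Con. Its differences were -0.11 (adjusted p = 0.551, rescaled 0.13) and -0.03 (adjusted p = 0.863, rescaled 0.27), so their sign depended on the scaling.

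In the IFIT family 1 of 4 members, Ifit3b, was called lower at 8 weeks. The 4 lay between -0.73 and -0.32 against Con and between -0.61 and -0.09 against NCAC. Ifit2 was called lower against Con without the pancreatic libraries, with or without the muscle libraries. Ifit3b had 0.5105, 1.18 and 1.95 TPM in CAC livers as lowest, median and highest, against 1.40, 3.44, 2.17, 1.54 and 3.33 TPM in NCAC and 2.68, 3.13, 2.34, 2.10 and 1.29 TPM in Con. Its differences were -0.60 (adjusted p = 0.0305, rescaled -0.46) and -0.61 (adjusted p = 0.0244, rescaled -0.43), with overlap of the ranges. Neither was called after rescaling. The call against Con was lost without the pancreatic libraries (-0.50, adjusted p = 0.118), and without CAC replicate 1 or 6 or Con replicate 1, 2 or 3. The call against NCAC was lost without the pancreatic and muscle libraries (-0.62, adjusted p = 0.0586), and without CAC replicate 1 or 6 or NCAC replicate 2 or 5. Ifit1 had 1.06, 2.66 and 3.86 TPM in CAC livers at 8 weeks, against 2.33, 6.06, 3.71, 1.73 and 8.38 TPM in NCAC and 5.26, 3.59, 3.39, 3.79 and 2.20 TPM in Con, with wide overlap and no call (-0.46, adjusted p = 0.239, and -0.57, adjusted p = 0.124).

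In the OAS family, some of whose products make the activator of RNase L, 1 of 6 tested members was called lower in both comparisons. Oas1b is annotated as a polymorphic pseudogene, since many laboratory strains carry a truncated copy. It is also the lowest of the tested members in level. CAC livers at 8 weeks had 0.384, 0.489 and 0.748 TPM as lowest, median and highest, against 1.32, 1.25, 0.984, 0.682 and 2.13 TPM in NCAC and 1.56, 1.24, 0.880, 1.21 and 0.804 TPM in Con. No CAC liver reached the lowest Con liver. The differences were -0.46 (-0.74 to -0.18, adjusted p = 0.00729, rescaled -0.35) and -0.53 (adjusted p = 0.00181, rescaled -0.38), and both were still called after median-of-ratios rescaling and on leaving out any 1 library. Under quantile normalization neither was called (-0.26, adjusted p = 0.130, and -0.33, adjusted p = 0.0505). At this level the added 1 TPM shrinks the difference: with 0.1 TPM it was -0.93 and -1.03. Without the pancreatic and muscle libraries the difference from NCAC was -0.35 (adjusted p = 0.0833).

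The ISG15 system comprises Isg15, a ubiquitin-like protein joined to other proteins, Usp18, which removes it, and Trim25. Isg15 (chromosome 4, 156199424 to 156200818, minus strand) had 4.53, 11.5 and 17.5 TPM in 8-week CAC livers as lowest, median and highest. NCAC livers had 13.5, 19.1, 9.18, 8.71 and 28.3 TPM and Con livers 18.1, 26.7, 14.7, 16.0 and 5.81 TPM. The spread within each group was as large as the distance between them, and the differences of -0.55 (adjusted p = 0.137) and -0.52 (adjusted p = 0.152) were not called. At 6 weeks Isg15 had 6.22, 11.8, 8.89, 9.28 and 10.2 TPM in CAC livers, against 15.5, 16.1, 15.0, 10.7 and 12.9 TPM in NCAC and 11.9, 11.4, 9.19, 9.93 and 8.94 TPM in Con. CAC and Con livers overlapped there. Usp18 had 1.71, 3.79 and 5.89 TPM in CAC livers at 8 weeks as lowest, median and highest, against 3.90, 5.07, 3.80, 2.57 and 10.5 TPM in NCAC and 5.98, 5.29, 7.28, 5.58 and 2.69 TPM in Con. The groups overlapped. It differed by -0.39 (adjusted p = 0.361) and -0.28 (adjusted p = 0.513), not called.

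Among the other antiviral effectors, 2 of 8 tested members, Bst2 and Rsad2, were called lower in each 8-week comparison. Rsad2 encodes viperin, which makes a chain-terminating nucleotide. It had 0.220, 1.10 and 2.26 TPM in CAC livers as lowest, median and highest, against 1.30, 2.14, 1.27, 1.33 and 2.19 TPM in NCAC and 1.86, 1.73, 1.52, 1.69 and 1.39 TPM in Con. Most CAC livers were lower, and the highest of them was above all Con livers. The differences were -0.52 (adjusted p = 0.0459, rescaled -0.40) and -0.51 (adjusted p = 0.0434, rescaled -0.36), close to the threshold and not called after rescaling. The call against Con was lost without the pancreatic libraries (-0.49, adjusted p = 0.109), and without CAC replicate 1, 4 or 6 or Con replicate 1, 2, 3 or 4. The call against NCAC was lost without the pancreatic and muscle libraries (-0.48, adjusted p = 0.136), and without CAC replicate 1, 4 or 6 or NCAC replicate 2 or 5. Mx2, annotated as a polymorphic pseudogene, was the only effector with positive differences in both comparisons beside Ifitm3. They were 0.30 (adjusted p = 0.194, rescaled 0.51 with adjusted p = 0.0257) and 0.30 (adjusted p = 0.181, rescaled 0.55 with adjusted p = 0.0161), called after rescaling alone. At 6 weeks Mx2 had 5.45, 4.29, 4.10, 6.46 and 4.22 TPM in CAC livers, 3.05, 3.32, 3.49, 2.91 and 4.96 TPM in NCAC and 3.68, 3.61, 3.07, 3.50 and 2.97 TPM in Con. Every CAC liver lay above every Con liver there, with a difference of 0.42 (adjusted p = 0.132). Isg20, an RNA exonuclease, reached 10.2 TPM in CAC replicate 3 at 8 weeks, against 1.25 to 2.70 TPM in the other CAC livers.

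Of the 3 further inducible proteins, Ifi27, a small hydrophobic membrane protein, was called lower against NCAC. It had 18.9, 37.2 and 53.6 TPM in CAC livers as lowest, median and highest, against 75.2, 60.3, 35.8, 30.9 and 114 TPM in NCAC and 45.0, 70.7, 50.7, 58.7 and 30.3 TPM in Con. The groups overlapped. The difference from NCAC was -0.71 (adjusted p = 0.0483, rescaled -0.41 with no call), and from Con it was -0.51 (adjusted p = 0.173). The call against NCAC was lost on leaving out any of 36 single libraries. That call was also lost without the pancreatic libraries (adjusted p = 0.0555) or those and the muscle libraries (-0.24, adjusted p = 0.619).

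Among the 6 GTPases, which attack the vacuoles of intracellular microbes, Igtp was lower in both 8-week comparisons and Ifi47 against NCAC. Igtp (chromosome 11, 58199556 to 58207591, plus strand) had 11.9, 29.8 and 53.4 TPM in CAC livers as lowest, median and highest. NCAC livers had 54.5, 51.6, 48.3, 37.1 and 60.9 TPM and Con livers 74.9, 41.0, 41.9, 39.9 and 46.5 TPM. Most CAC livers lay below the others. The differences were -0.80 (-1.34 to -0.25, adjusted p = 0.0166, rescaled -0.55 with adjusted p = 0.0903) and -0.87 (-1.41 to -0.32, adjusted p = 0.00798, rescaled -0.57 with adjusted p = 0.0862). The call against Con was lost without CAC replicate 1, CAC replicate 6 or Con replicate 1, and the call against NCAC without the pancreatic and muscle libraries (-0.73, adjusted p = 0.0835). Igtp overlaps Irgm2 on the same strand, so reads may be shared. Ifi47, a GTPase of the same family, had 9.65, 12.6 and 18.4 TPM in CAC livers as lowest, median and highest, against 23.6, 22.3, 23.1, 13.4 and 22.02 TPM in NCAC and 35.5, 22.8, 15.2, 19.7 and 9.28 TPM in Con. It differed by -0.67 from NCAC (adjusted p = 0.0273, rescaled -0.38 with no call) and by -0.54 from Con (adjusted p = 0.0813). The call was lost without CAC replicate 6 or NCAC replicate 1, 2, 3 or 5, and without the pancreatic and muscle libraries (-0.57, adjusted p = 0.167). Gbp3, a guanylate-binding protein gene, differed from Con by -0.81 at 6 weeks (adjusted p = 0.0717), where the ranges did not overlap, and by -0.66 at 8 weeks (adjusted p = 0.0651), where it was called without the pancreatic libraries.

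The 8-week counts depended on single livers, and the share of all genes called without each liver is not given here. Against Con, the 7 called members became 3 without CAC replicate 1, without CAC replicate 6 or without Con replicate 1, became 4 without Con replicate 3, and became 11 without CAC replicate 3. Against NCAC, the 10 became 4 without CAC replicate 6 or NCAC replicate 2, 5 without NCAC replicate 5 and 6 without CAC replicate 1. CAC replicate 6, picked for its low mean of the members, had the lowest common level of its group, 2.49. It was lowest in 18 of 37 members, and 14.0% of all genes, which were not picked in this way, were lowest there. Without the 9 pancreatic libraries 6 members were called lower against Con, of which 3 (Oas1b, Bst2 and Igtp) were among the 7 and 3 (Gbp3, Trim25 and Ifit2) were not. Against NCAC 9 were called, all but Ifi27 of the 10. When the muscle libraries were left out as well, the numbers were 6, the same genes, and 2, Bst2 and Trim25. Without the pancreatic libraries 39.2% of all genes were called against Con and 52.7% against NCAC. Without both sets these shares were 39.9% and 34.1%.

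Whatever the group, most members went up and down together from liver to liver. After each liver's value was taken as its deviation from the mean of its group, the median Pearson r over the 666 pairs of members was 0.577 over 62 livers (Spearman 0.525), and 99.1% of pairs were above 0. The median over all pairs of tested genes was 0.098. Without the 2 livers farthest from the median it was 0.522, and within the arms it was 0.611 in CAC (n = 22), 0.573 in NCAC (n = 20) and 0.591 in Con livers (n = 20). Without the pancreatic libraries it was 0.607 (n = 53). These values share libraries and scaling and are given as a description. Rtp4, which helps receptors to the cell surface, followed the mean of the other members most closely (r = 0.956), and next came Xaf1, a partner of a cell death inhibitor (0.942), Ifit1 (0.938), Ifit3b (0.921) and Irf7 (0.911). Isg15 stood at 0.869, Igtp at 0.805 and Bst2 at 0.7. Isg20 (0.224), Trim25 (0.289) and Stat2 (0.345) followed it least.

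**Figure D4:**
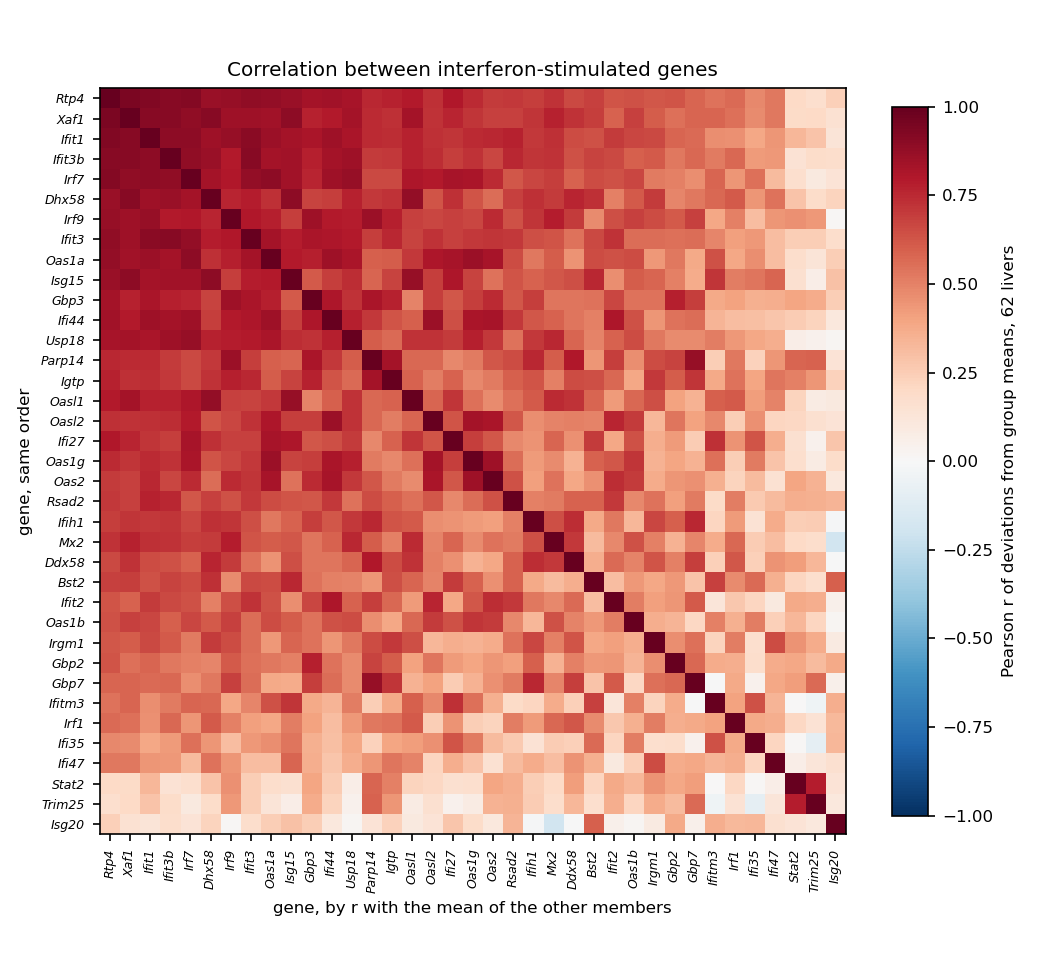
Pearson r between members over 62 livers, computed on log2(TPM + 1) after subtracting each group's mean, with members ordered by their r with the mean of the others (Rtp4, 0.956, to Isg20, 0.224). A block of 30 members with r of at least 0.6 to the mean covers most of the map, and Isg20, Trim25 and Stat2 lie outside it.

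Of the 5 members at the head of that order, Ifit3b was called in a comparison and the other 4 in none. Irf7 varied most between livers of a group, with an SD of 0.58 on the log2 scale, and Usp18 came next at 0.54, and neither was called in any comparison. Oas1b (0.216), Stat2 (0.223) and Ifitm3 (0.228) varied least on this scale, where the added 1 TPM compresses the spread of a gene as low as Oas1b, which ran from 0.682 to 2.13 TPM in NCAC livers at 8 weeks. The 14 tested members with an ISRE match had a median r with the others of 0.789 and median 8-week differences of -0.51 from Con and -0.48 from NCAC. For the 15 tested members with a promoter and no match the values were 0.715, -0.29 and -0.11. Of the 9 called members with a promoter 4 held a match, and of the 21 others 11 did.

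The genes upstream of the members were read from lists. Of 12 interferon genes, 8 were listed at 0 in every library and none exceeded 0.214 TPM, so none was tested. Of 5 tested receptor genes 2 were called lower in CAC than in Con livers at 8 weeks, beside 35.3% of all genes, and 1 after rescaling: Il10rb, a subunit of the type III receptor (-0.46, adjusted p = 0.00104, rescaled -0.27), and Ifngr2, a subunit of the gamma receptor (-0.43, adjusted p = 0.0183, rescaled -0.20 with adjusted p = 0.244 and no call). Of 11 tested signalling genes 2 were called higher and 5 lower in that comparison, where 5.87% of all genes were called higher and 35.3% lower. After rescaling 3 were called higher and 3 lower, where 26.7% of all genes were called in either direction. Ptpn2, a phosphatase that switches off the kinases of the receptors, differed by 0.63 (adjusted p = 3.39e-06, rescaled 0.85). Irf5, a factor abundant in macrophages, differed by -1.41 (adjusted p = 8.9e-06, rescaled -1.20), and Ptpn6, a phosphatase of blood cells, by -0.77 (adjusted p = 9.4e-06, rescaled -0.54). Irf5 averaged 4.10 ± 2.45 TPM in CAC livers (n = 7), 9.89 ± 3.32 TPM in NCAC and 12.1 ± 3.99 TPM in Con livers (SD, n = 5 each).

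Some sensing genes were higher in CAC livers. Of 12 tested genes of nucleic acid sensing other than the members, 2 were called higher and none lower in CAC than in Con livers at each of 4, 6 and 8 weeks. Of all genes 1.91% were called in either direction at 4 weeks, 5% higher at 6 weeks and 5.87% higher at 8 weeks. Against NCAC at 8 weeks 2 were called higher (5.09% of all genes). Mavs was called lower there (-0.39, limma adjusted p = 0.033), as were 43.1% of all genes. After rescaling 4 were called higher and 0 lower in each 8-week comparison, where 26.7% and 25.3% of all genes were called in either direction. Tmem173, which encodes the DNA-sensing adaptor STING, averaged 4.97 ± 1.51 TPM in CAC livers at 8 weeks (n = 7), 1.52 ± 0.469 TPM in NCAC and 2.57 ± 0.985 TPM in Con livers (SD, n = 5 each). Its log2 difference from Con was 0.76 at 4 weeks (adjusted p = 0.0174), 1.07 at 6 weeks (adjusted p = 5.23e-05) and 0.75 at 8 weeks (adjusted p = 0.000679). Myd88, the adaptor of the Toll-like receptors, differed by 0.40 at 4 weeks (adjusted p = 0.00253), 0.40 at 6 weeks (adjusted p = 0.000806) and 0.36 at 8 weeks (adjusted p = 0.000269). Of the 11 endothelial markers none was called in CAC against Con livers at 4 weeks, where their median log2 difference was 0.02. At 6 weeks 3 were called higher, and at 8 weeks 5 were called higher and 1 lower. The part of endothelial cells in the differences of Tmem173 and Myd88 was not tested.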

How the data were processed

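RNA of 62 livers was sequenced as stranded mRNA libraries, per the labels' protocols. The authors deposited 1 table of TPM values (transcript shares corrected for length) per gene symbol. The submitters' processing notes name the mm10 build, while aligner and counter are unnamed in what was read here. Every column was mapped to a sample by its title. The labels call the samples biological replicates. Precision cannot be had from depth, since each column sums to 1e+06.

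From the deposited TPM, log2(TPM + 1) was computed. Genes reaching 1 TPM in 5 or more libraries (12160) were fitted with limma 3.58.1 (R 4.3.3) as 12 group means with a trended prior. Contrasts were taken within each week, and p-values were adjusted by Benjamini-Hochberg over all tested genes, with calls at an adjusted p under 0.05. Fold changes of low genes are understated on this scale. F tests asked whether a contrast changed over weeks. The code was tested on simulated data. Named genes were Isg15, Irf7, Ifit1, Stat2, Usp18 and Bst2 whatever their result, and up to 2 further called members per role with the smallest adjusted p. Mx2, Isg20, Gbp3 and members named for covariation were chosen after their values were seen. Members and lists were chosen with earlier results of these data known. Gene positions are GENCODE M21 (mm10), and promoters are RefSeq GRCm38.p6. Alternatives were the pseudocount, the filter, rescaling, quantile normalization, robust moderation, a replicate block, a fit per week, and leaving out libraries.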

Additional observations from a re-analysis of the deposited data

Results flagged for a closer look

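In 204 sets of 5 or 7 libraries (a named member in a group), 11 had a lowest or highest liver set apart from the rest. The limit was the 95% limit of Dixon's test on the log2 scale, and chance alone gives about 5% of such sets. The 11 sets are close to that share, and sets of the same group share livers. NCAC replicate 2 at 2 weeks was the low liver for 4 members: Ifit1 had 0.963 TPM there (3.17 to 4.66 TPM in the other livers), Ifit3b 0.535 TPM (2.14 to 3.04 TPM), Oas1b 0.233 TPM (0.601 to 0.723 TPM) and Ifi27 16.4 TPM (39.97 to 51.6 TPM). NCAC replicate 4 at 4 weeks was the high liver for Bst2, at 246 TPM (164 to 179 TPM in the others), and for Ifitm3, at 894 TPM (517 to 573 TPM). Its pancreatic markers summed to 2184 TPM and its B and plasma cell markers to 1140 TPM, and their part in these values was not tested.

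Ifitm3 had 431 TPM in Con replicate 1 at 2 weeks, where the other livers had 659 to 712 TPM. Rsad2 had 0.717 TPM in Con replicate 2 at 2 weeks, against 1.43 to 1.7 TPM. Igtp had 15.9 TPM in Con replicate 5 at 4 weeks (40.2 to 51.4 TPM in the others), the liver with the lowest common level of the members, and 74.9 TPM in Con replicate 1 at 8 weeks (39.9 to 46.5 TPM). Ifi47 had 13.4 TPM in NCAC replicate 4 at 8 weeks, against 22.02 to 23.6 TPM.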

How the results depend on the processing

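At 8 weeks, against Con, the 7 became 3 under median-of-ratios rescaling, 2 under quantile normalization, 3 with the replicate block and 4 with a mean of at least 5 TPM. Against NCAC the 10 became 4, 3 and 3 under the first 3 of these, and 2 without pancreatic or muscle libraries. Of all genes 26.7%, 28.1%, 31.9% and 47.6% were called against Con in these settings, in the order given. Against NCAC the shares were 25.3%, 27.3%, 40.6% and 34.1%. With the mean filter 20 members were tested. The block leaves CAC replicates 6 and 7 without a partner, so they add nothing there. Same-numbered libraries did not deviate together (60 pairs, r from -0.368 to 0.364, median -0.0404, 10 over 0.1). At 6 weeks CAC against Con had 10 members in a fit within the week (24.4% of all genes). CAC against NCAC had 10 within the week (14.7%), 1 without the filter (6.5%) and 1 with the mean filter (13.1%). It had 0 without pancreatic libraries (8.74%) and 0 without pancreatic and muscle libraries (9.42%). At 4 weeks CAC against Con had 1 (Ifitm3) under both scalings and without either set of libraries, where 2.49% to 3.09% of all genes were called. NCAC against Con at 2 weeks had 1 (Irf1) within the week, where 3.02% of all genes were called. The F tests gave 1 member for CAC against Con with the mean filter and with quantile normalization, and 1 for Con over weeks without the filter and with quantile normalization. Shares of all genes are not given for these F tests or for the fits without 1 library.

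Leaving out 1 library gave 3 to 11 members for CAC against Con and 4 to 12 against NCAC at 8 weeks, 1 to 3 and 0 to 2 at 6 weeks, and 0 to 1 for CAC against Con at 4 weeks. At 6 weeks the count against Con was 1 without CAC replicate 1 or Con replicate 4, and against NCAC 0 without CAC replicate 1 or NCAC replicate 2 or 5 and 1 without CAC replicate 2 or 3 or NCAC replicate 1 or 4. At 4 weeks the count against Con was 1 without CAC replicate 4, NCAC replicate 4, Con replicate 1 or 2, Con replicate 1 at 2 weeks or Con replicate 5 at 8 weeks. The F tests gave 0 to 2 for CAC against Con (2 without CAC replicate 3 at 8 weeks, and 1 without those 6 libraries, CAC replicate 3 at 2 weeks, or CAC or NCAC replicate 5 at 8 weeks). For Con over weeks they gave 0 to 1 (1 without Con replicate 1 at 2, 4 or 8 weeks, NCAC replicate 4 at 4 weeks or Con replicate 5 at 8 weeks).

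Irf7 for CAC minus Con at 8 weeks was 0.15 under both scalings and 0.0432 without either set of libraries, and ran from -0.264 to 0.0602 when 1 library was left out. Stat2 was 0.13 and 0.16 under median-of-ratios and quantile scaling against Con. Against NCAC Stat2 was 0.27 and 0.29 under these, 0.0275 with the block and 0.0835 without pancreatic or muscle libraries, and ran from -0.112 to 0.0522 when 1 library was left out. None of these was called, and the cause was not tested. Of the 21 called differences, 8 stayed called with median-of-ratios scaling, 6 with quantile scaling, 21 with robust moderation, 10 with the block, 13 without pancreatic libraries and 6 without pancreatic or muscle libraries. TPM carries no depth, so counting error could not be given.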

Other observations

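A further list of 48 interferon-induced genes outside the 39 members, 45 of them tested, was read at 8 weeks. In CAC against Con livers 1 was called higher and 19 lower (1 and 9 after median-of-ratios rescaling), where 5.87% of all genes were called higher and 35.3% lower, with a median log2 difference of -0.40 beside -0.21 over all genes. Against NCAC 3 were called higher and 12 lower (6 and 3 after rescaling). Of all genes 5.09% were called higher and 43.1% lower there, and the median of the list was -0.26 beside -0.26 over all genes. After rescaling 26.7% of all genes were called in either direction against Con and 25.3% against NCAC. Samhd1, which breaks down the nucleotides a virus needs, differed from Con by -0.52 at 6 weeks (limma adjusted p = 0.00487) and -0.76 at 8 weeks (adjusted p = 3.94e-06). Gbp8, a guanylate-binding protein gene, differed from Con by -1.13 at 8 weeks (adjusted p = 2.33e-05). Its difference then was -0.44 for CAC minus NCAC (adjusted p = 0.0686) and -0.68 for NCAC minus Con (adjusted p = 0.201, ranges not overlapping). Neither of these 2 was called.

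Ifitm2, the neighbour and near copy of Ifitm3, was called higher in CAC than in Con livers at 4, 6 and 8 weeks, whereas Ifitm3 was called at 6 weeks. At 8 weeks Ifitm2 averaged 967 ± 64.7 TPM in CAC livers (n = 7), 470.4 ± 33.3 TPM in NCAC and 492.7 ± 81.1 TPM in Con livers (SD, n = 5 each), with no overlap. Its log2 difference from Con was 0.57 at 4 weeks (limma adjusted p = 0.00286), 1.06 at 6 weeks (adjusted p = 3.97e-09) and 0.98 at 8 weeks (adjusted p = 1.43e-09). From NCAC it was 0.92 at 6 weeks (adjusted p = 1.14e-07) and 1.04 at 8 weeks (adjusted p = 4.23e-10). Reads shared between Ifitm2 and Ifitm3 could be assigned to either, and the assignment is not given in the sources used here.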
